A study of Mus musculus with 4 samples.

Results

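The genes of Eph, ephrin, Slit, Robo and netrin guidance were followed through bulk RNA-seq of embryonic mouse telencephalon with and without a deletion of STING in neural progenitors. The rule that picked them used the symbol alone and no measured value: every Eph receptor, ephrin, Slit, Robo, netrin and netrin-G gene of the table, Dcc and Neo1, the 4 Unc5 receptors, Draxin, Rgma and Rgmb. It gave 43 of the 27293 named genes of the table, and was set with earlier results of these data known. Ntn3, which the rule also covers, is not analysed here.

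Total RNA of 4 libraries was sequenced at embryonic day 13 (E13), all from C57BL/6 telencephalic tissue, to ask which genes change when STING, a cytosolic adaptor of the DNA-sensing pathway, is lost from the developing cortex. The 2 WT libraries carry the genotype label WT. The 2 cKO libraries carry the label STINGf/f;Nestin-Cre, in which Cre recombinase from the Nestin promoter recombines the floxed STING alleles in neural progenitors and the cells they give rise to, while blood vessels, meninges and microglia in the same tissue mostly arise from other lineages. The title of WT 2 ends in "nes" where that of WT 1 ends in "wt", and whether WT 2 carries Nestin-Cre is not given. Nothing in the labels says that the libraries came from separate embryos or litters, so every p-value measures only the spread between these samples, which may be technical.

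Guidance molecules steer growing axons and migrating neurons by attraction and repulsion. Eph receptors are receptor tyrosine kinases that bind ephrins on neighbouring cells, ephrin-A ligands being held in the membrane by a lipid anchor and ephrin-B ligands by a transmembrane segment that can itself signal. Slits are secreted repellents read by Robo receptors, and netrin-1 attracts through DCC and repels through Unc5 receptors. In the cortex these systems position thalamic axons, guide callosal and corticofugal axons and act in the ventricular zone and on migrating neurons.

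Promoter windows are shown for 4 of the 7 genes that were at least 1.5-fold lower in cKO 2 than in cKO 1 (Epha3, Epha5, Robo1 and Robo2) and for Ephb2, the highest EphB receptor and a holder of an NF-κB consensus match, a motif searched because STING signalling reaches the NF-κB transcription factor. Each is the 250 bases before the RefSeq start of the gene in GRCm38.p6, read on the gene's strand, and overlaps no GENCODE exon. Capitals mark the NF-κB consensus match.
Epha3 (chr16:63864176-63864425, minus strand): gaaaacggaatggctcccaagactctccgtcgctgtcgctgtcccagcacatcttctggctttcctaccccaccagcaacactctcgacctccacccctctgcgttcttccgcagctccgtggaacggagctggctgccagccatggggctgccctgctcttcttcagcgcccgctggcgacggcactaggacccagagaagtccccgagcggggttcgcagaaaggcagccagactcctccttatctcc
Epha5 (chr5:84417383-84417632, minus strand): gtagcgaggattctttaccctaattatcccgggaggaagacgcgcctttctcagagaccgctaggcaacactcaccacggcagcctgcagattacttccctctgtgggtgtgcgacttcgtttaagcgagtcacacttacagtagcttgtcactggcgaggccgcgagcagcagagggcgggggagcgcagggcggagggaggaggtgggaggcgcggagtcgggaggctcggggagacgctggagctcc
Robo1 (chr16:72662899-72663148, plus strand): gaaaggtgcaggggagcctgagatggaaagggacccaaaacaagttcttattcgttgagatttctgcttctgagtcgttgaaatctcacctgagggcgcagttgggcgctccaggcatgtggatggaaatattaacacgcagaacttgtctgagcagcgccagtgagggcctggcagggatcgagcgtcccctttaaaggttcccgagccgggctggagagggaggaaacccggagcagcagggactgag
Robo2 (chr16:74411826-74412075, minus strand): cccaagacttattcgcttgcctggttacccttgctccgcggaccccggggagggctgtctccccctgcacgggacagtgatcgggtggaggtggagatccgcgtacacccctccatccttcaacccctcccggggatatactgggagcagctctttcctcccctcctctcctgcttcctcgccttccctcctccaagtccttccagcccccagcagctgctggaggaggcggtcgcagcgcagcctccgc
Ephb2 (chr4:136836013-136836262, minus strand): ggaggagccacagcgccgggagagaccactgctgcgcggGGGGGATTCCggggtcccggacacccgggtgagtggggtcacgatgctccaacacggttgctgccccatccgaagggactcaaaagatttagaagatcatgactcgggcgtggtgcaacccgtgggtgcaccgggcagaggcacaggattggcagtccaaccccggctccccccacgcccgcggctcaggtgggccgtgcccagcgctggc
Of the 43 genes, 37 had a window in the RefSeq table. The NF-κB consensus, searched on both strands, was in 2 of these 37 windows (5.41%), those of Ephb1 and Ephb2, and in 3.90% of all 32851 windows of the table. The match of Ephb2 began 211 bases before the start and that of Ephb1 24 bases before it. No match was found in the other 35 windows, which says only that these letters are not there. The windows were rich in G and C, with a median GC content of 64.8% against 52.4% over the table, and held a median of 18 CpG dinucleotides against 6.

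The 4 libraries held between 17209654 and 18533391 counts on genes, so that the limit set by a count of 0 (3 counts) was 0.162 to 0.174 CPM (counts scaled to equal library size). The targeted gene did not separate the labels: Tmem173, the older symbol of STING, had 20 and 19 counts in the WT libraries against 18 and 22 in the cKO libraries, with a log2 fold change of 0.02 (SE 0.45). These counts cover the whole gene and not the floxed part alone, and cKO therefore stands throughout for the label. WT 1 stood apart in markers of non-neural tissue. Summed choroid plexus markers (10 of 12 in the table) were at 80.0 CPM in WT 1 against 14.4 to 16.7 CPM in the other 3, with Cldn2 at 0 in those 3, and meninges and mesenchyme markers (13 of 13) were at 466 CPM against 131 to 167 CPM. Telencephalic identity was plain in every library, with cortical progenitor markers (10 of 10) at 2668 to 2942 CPM and cortical neuron markers (11 of 11) at 5180 to 6341 CPM. The summed CPM of all 43 guidance genes was 3460 (WT 1), 3672 (WT 2), 3574 (cKO 1) and 3389 (cKO 2).

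Calls between the labels were few among the guidance genes, as they were among all genes. None of the 42 tested genes reached a fold change of at least 2 with an unadjusted p of at most 0.05 in edgeR's quasi-likelihood test, where 131 of all 16145 genes tested (0.811%) did. A single member, the netrin receptor gene Unc5c, had an unadjusted p under 0.05, against 1.23% of all genes in either direction and 0.997% in the direction of lower in cKO. No member had an adjusted p under 0.05, the smallest being 0.999897 (edgeR, Benjamini-Hochberg), and 0% of all genes did, although 199 had an unadjusted p under 0.05. DESeq2 called 0 members at the fold and p thresholds, 0 at an adjusted p under 0.05 and 0 at an unadjusted p under 0.05. The shares of all genes that DESeq2 called are not given here, so these counts have no background beside them. Of the 42 log2 fold changes (cKO over WT) 15 were above 0 and 27 below, with a median of -0.07 against -0.01 over all genes.

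Like the p-values, the intervals measure only the spread between these samples, which may be technical, and so do not bound an effect of genotype. For 37 of the 42 members (88.1%) the 95% interval lay within a 2-fold change in both directions, against 70.2% of all genes, and the members were also more abundant, with a median of 47.1 CPM against 22.0 CPM. The 5 whose intervals reached past 2-fold were Unc5c, Ntng1, Epha1, Epha6 and Epha10, the 5 tested members with the lowest level per length. In 38 of the 42 members (90.5%) the difference between libraries of 1 label exceeded the difference between the group means, near the 87.4% of all genes in which it did. In this tissue, fewer cells of a type and less RNA per cell cannot be told apart.

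**Figure D1:**
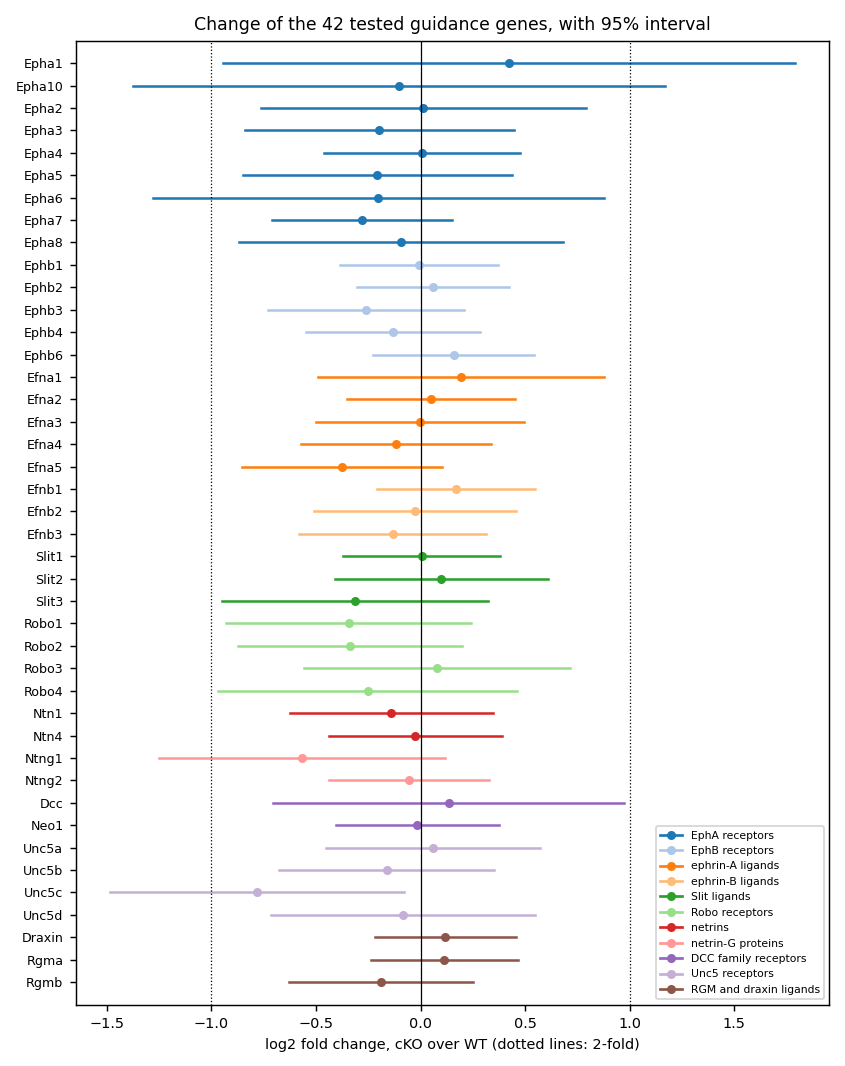
The log2 fold change (cKO over WT) of each of the 42 tested guidance genes is a point with its 95% interval from edgeR as a bar, coloured by family, and dotted lines mark a 2-fold change. The interval of Unc5c is the only one that leaves out 0, and 37 of the 42 intervals stay between the dotted lines.

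The ephrins included the most abundant guidance genes. Levels between genes are given as CPM per kilobase of exon (RPKM, mean ± SD over the 4 libraries, n = 4). Efnb1, an ephrin-B ligand, was the highest of all at 100.4 ± 10.4 RPKM and stood clear of the next, Efnb3, at 57.9 ± 8.69 RPKM. In CPM, Efnb1 was at 321 (WT 1), 334 (WT 2), 332 (cKO 1) and 399.6 (cKO 2), so that cKO 2 was high and cKO 1 lay between the WT libraries. Its log2 fold change was 0.17 (SE 0.16). Efnb3 was at 199 and 189 CPM in WT and at 144 and 206 CPM in cKO, with the lowest and the highest value both in cKO libraries. Efnb2, the ligand of the vascular receptor Ephb4 and also expressed in neural progenitors, was at 287 and 331 CPM in WT and at 363 and 241 CPM in cKO, again with both extremes in cKO. Neither gene differed between labels beyond this spread, with log2 fold changes of -0.13 (SE 0.19) and -0.03 (SE 0.21).

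Among the ephrin-A ligands Efna2 had the highest level, 29.8 ± 3.00 RPKM, and was at 64.3 and 61.1 CPM in WT and 56.9 and 72.0 CPM in cKO, with overlapping groups. Efna5, a repellent that helps map thalamic axons onto cortical areas, was the ephrin with the largest difference. It was at 20.3 CPM (WT 1), 16.6 (WT 2), 13.8 (cKO 1) and 14.5 (cKO 2), so that the lower WT library was above the higher cKO library. The log2 fold change was -0.37 (SE 0.21, unadjusted p of 0.109 from edgeR) and its interval ran from -0.85 to 0.10. Efna4 also had groups that did not overlap, but by a narrow margin: 19.1 and 19.0 CPM in WT and 16.2 and 18.7 CPM in cKO, for a log2 fold change of -0.12 (SE 0.20). Efna1 and Efna3 had overlapping groups, with log2 fold changes of 0.19 and -0.00.

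The EphA receptors ranged in level from Epha4 at 25.3 ± 4.26 RPKM to Epha1 at 0.160 ± 0.0529 RPKM. Epha4, which binds both ephrin classes and is prominent in the embryonic cortex, was at 194 and 214 CPM in WT and 245 and 163 CPM in cKO. Both extremes were in cKO libraries and the log2 fold change was 0.01 (SE 0.20). Epha7, an ephrin-A receptor of cortical progenitors and neurons, was at 38.2 and 40.0 CPM in WT and 36.1 and 28.0 CPM in cKO, so the groups did not overlap. Its log2 fold change was -0.28 (SE 0.19, unadjusted p of 0.172 from edgeR). Epha1 rested on few counts, 13 and 6 for WT against 14 and 12 for cKO, and its log2 fold change of 0.42 (SE 0.59), the only one of the 10 largest with a positive sign, was within its error. The other EphA receptors had log2 fold changes between -0.21 and 0.01.

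EphB receptors were steadier. Ephb2 led them at 22.2 ± 1.55 RPKM and was at 273 and 277 CPM in WT and 261 and 307 CPM in cKO, with overlapping groups and a log2 fold change of 0.06 (SE 0.16). Ephb6, a family member without kinase activity, was at 57.1 and 52.1 CPM in WT and 55.4 and 65.6 CPM in cKO, also overlapping, with a log2 fold change of 0.16 (SE 0.17). Ephb3 had the largest difference in the family, at 28.4 and 22.7 CPM in WT and 19.4 and 22.8 CPM in cKO. WT 1 was high, WT 2 lay between the cKO libraries and the log2 fold change was -0.26 (SE 0.20). Ephb1 and Ephb4 had log2 fold changes of -0.01 and -0.13.

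Slit1 was the most abundant Slit, at 18.6 ± 1.60 RPKM, and was equal between the labels at 101 and 120 CPM in WT and 103 and 117 CPM in cKO, with a log2 fold change of 0.01 (SE 0.16). Slit3 was at 9.18 and 8.42 CPM in WT and 5.92 and 8.13 CPM in cKO. The groups did not overlap, with cKO 1 low and cKO 2 just under WT 2, and the log2 fold change of -0.31 (SE 0.27) was within 2 SE of 0. Slit2 had overlapping groups and a log2 fold change of 0.10.

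The Slit receptors Robo1 and Robo2 had close levels, 7.66 ± 1.99 and 7.20 ± 1.67 RPKM, whose ranges overlapped. Robo1 was at 126 CPM (WT 1), 157 (WT 2), 141 (cKO 1) and 81.2 (cKO 2). Robo2 followed the same order of groups, at 131 and 143 CPM in WT and 135 and 80.4 CPM in cKO. In both genes cKO 1 lay between the WT libraries and cKO 2 stood low, and the log2 fold changes of -0.34 (SE 0.25) and -0.34 (SE 0.23) rested on cKO 2: without it that of Robo1 was 0.01. Robo3, which keeps commissural axons from responding to Slit before they cross the midline, ranged from 22.0 to 39.8 CPM with overlapping groups and a log2 fold change of 0.08.

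Robo4 belongs to blood vessel endothelium rather than to neurons. It was at 11.1 CPM (WT 1), 7.61 (WT 2), 6.25 (cKO 1) and 9.29 (cKO 2), with overlapping groups and a log2 fold change of -0.25 (SE 0.31), and of 0.03 without WT 1. Unc5b and Ephb4, receptors also known from vessels and chosen here after their values were seen, were likewise highest in WT 1, at 39.9 CPM against 26.9 to 33.3 and at 48.9 CPM against 38.1 to 41.4. Endothelium markers (10 of 10, none at 0) summed to 236 CPM in WT 1 and 181 in WT 2, and to 159 and 160 CPM in the cKO libraries. They did not all go this way: Tie1 was highest in WT 2 (24.2 CPM), and Cldn5 (23.9 CPM) and Sox17 (5.20 CPM) in cKO 2. The rest were highest in WT 1. The part of endothelium in the values of these 3 receptors was not tested.

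The netrin ligands were modest in level. Ntn1, the attractant and repellent netrin-1, was at 62.3 and 59.5 CPM in WT and 44.2 and 65.4 CPM in cKO, with both extremes in cKO, and had the highest level of the netrins at 9.22 ± 1.49 RPKM. Its log2 fold change was -0.14 (SE 0.21), and -0.45 without cKO 2. Ntn4, a basement membrane netrin, was at 22.2 to 24.1 CPM in all 4 libraries. Ntn5 was near absent, its counts being 6 and 0 for WT and 0 and 1 for cKO, and was the 1 member with too few counts to test. Of the membrane-anchored netrin-G proteins, which bind synaptic partners of the Lrrc4 family rather than DCC, Ntng2 was at 26.8 ± 2.69 RPKM and at 96.6 and 122 CPM in WT and 104 and 105 CPM in cKO, with the cKO libraries between the WT ones. Ntng1 had a low level, 0.599 ± 0.143 RPKM, and the second largest difference: 5.99 and 5.83 CPM in WT and 4.39 and 3.54 CPM in cKO. Its groups did not overlap, with a log2 fold change of -0.57 (SE 0.30, interval -1.25 to 0.12, unadjusted p of 0.0926 from edgeR).

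Among netrin receptors, Unc5c stood out. Unc5c (ENSMUSG00000059921, plus strand, GRCm38 chromosome 3 from 141465216 to 141834924) encodes a receptor for netrin-1 repulsion. Its counts were 143 (WT 1), 118 (WT 2), 88 (cKO 1) and 66 (cKO 2), or 8.31, 6.37, 4.83 and 3.65 CPM, and the groups did not overlap. The log2 fold change was -0.78 (SE 0.30, interval -1.48 to -0.08, unadjusted p of 0.0333 and adjusted p of 0.999897 from edgeR), and with DESeq2 it was -0.77 (unadjusted p of 0.056). It weakened to -0.59 both without WT 1 (unadjusted p of 0.19) and without cKO 2 (unadjusted p of 0.11), in fits that take the lone library of a label to vary like the other pair. Its level was among the lowest of the module, 0.302 ± 0.105 RPKM. It shares 118 exon bases with Gm15688, an antisense gene, and whether the counting used strand is not given, so reads of both genes there cannot be told apart.

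The other Unc5 receptors did not share this difference in size. Unc5a, the highest of the family at 13.3 ± 2.35 RPKM, was at 49.3 and 59.7 CPM in WT and 45.8 and 67.2 CPM in cKO, with both extremes in cKO and a log2 fold change of 0.06 (SE 0.22). Unc5b and Unc5d had log2 fold changes of -0.16 (SE 0.22) and -0.08 (SE 0.27). Whether Unc5c differed from them in its response was not tested. Neo1, the receptor of RGM ligands, was the more abundant DCC family receptor at 29.4 ± 2.84 RPKM, and at 228 and 288 CPM in WT and 257 and 251 CPM in cKO it lay between the WT libraries in both cKO libraries.

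Draxin, a secreted repellent that binds DCC and netrins, was the 1 member with both cKO libraries above both WT libraries. Its CPM values were 241 (WT 1), 253 (WT 2), 260 (cKO 1) and 273 (cKO 2), a log2 fold change of 0.12 (SE 0.15), and at 49.4 ± 2.58 RPKM it ranked behind only Efnb1 and Efnb3. Rgma, a neogenin ligand, was at 181 and 165 CPM in WT and 173 and 198 CPM in cKO, with overlapping groups, at 32.3 ± 2.52 RPKM. Rgmb had a log2 fold change of -0.19 (SE 0.19).

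Counted over the module, the cKO libraries were both under the WT libraries in 6 of 42 members (14.3%), Unc5c, Ntng1, Efna5, Epha7, Slit3 and Efna4, against 11.2% of all genes tested. Both lay above in 1 (2.38%), Draxin, against 10.4% of all genes. The share of members with lower cKO libraries was thus near that of all genes.

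**Figure D2:**
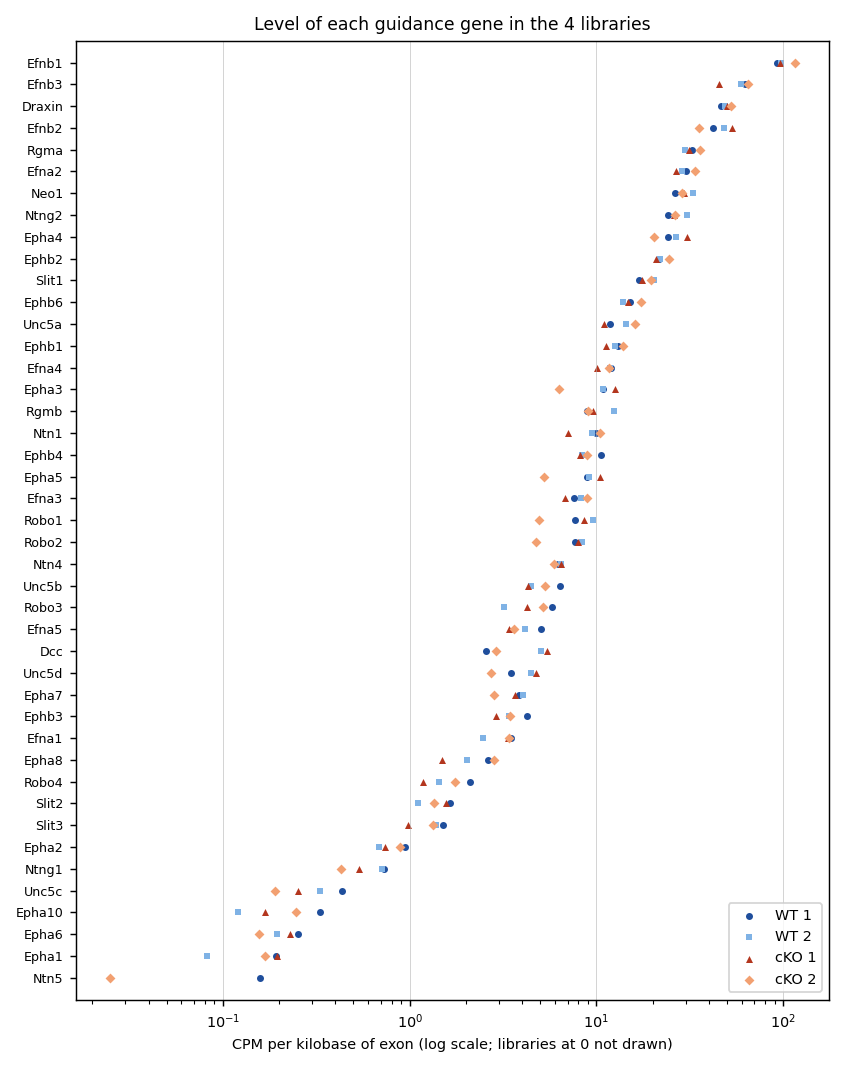
Level of each of the 43 guidance genes in CPM per kilobase of exon (log axis) in WT 1, WT 2, cKO 1 and cKO 2, ordered by the mean, with libraries at 0 left out. Efnb1 stands at the top at a mean of 100.4 and Ntn5 at the bottom at 0.0456, and at most steps of the order the ranges of neighbours overlap.

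In the order of levels over all 43 genes, neighbours had separate ranges over the 4 libraries at only 3 steps: between Efnb1 and Efnb3, between Ephb2 and Slit1, and between Slit3 and Epha2. All other neighbours overlapped. By library, the highest CPM of a tested member was in WT 1 in 15 genes, WT 2 in 7, cKO 1 in 8 and cKO 2 in 12. The lowest was in WT 1 in 7, WT 2 in 8, cKO 1 in 15 and cKO 2 in 12. Each library thus held some of both extremes, with the lowest more often in cKO libraries. The same counts over all genes are not given, so this lean is not read as a trait of the members. The low end was held by Unc5c, Epha10, Epha6, Epha1 and Ntn5, each at or under 0.302 RPKM.

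For several receptors the larger difference lay inside the cKO label. In 7 of 42 members (16.7%) cKO 2 was at least 1.5-fold below cKO 1, against 15.2% of all genes tested: Epha3, Epha5, Dcc, Robo1, Robo2, Unc5d and Efnb2. Epha4, at 0.667 of cKO 1, was just outside. These members are named because the count is over them, after their values were seen.

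Epha3 (GRCm38 chromosome 16 from 63543538 to 63864158) and Epha5 (chromosome 5 from 84054761 to 84417382) encode ephrin-A receptors. Epha3 was at 94.4 (WT 1), 94.7 (WT 2), 109 (cKO 1) and 54.9 CPM (cKO 2). Epha5 was at 149 (WT 1), 154 (WT 2), 174 (cKO 1) and 87.4 CPM (cKO 2). In both, 3 libraries were close together and cKO 2 stood at 0.503 of cKO 1. Summed over the EphA receptors, the CPM was 497 (WT 1), 517 (WT 2), 578 (cKO 1) and 354 (cKO 2). Over the Robo receptors it was 308 (WT 1), 330 (WT 2), 312 (cKO 1) and 206 (cKO 2). Robo3 and Robo4 were higher in cKO 2 than in cKO 1, unlike Robo1 and Robo2. The summed Slits were at 149 to 159 CPM in the 4 libraries. The summed ephrin-B ligands were at 807 to 854 CPM, a sum of opposite differences, since Efnb2 was lower in cKO 2 than in cKO 1 while Efnb1 and Efnb3 were higher.

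Unc5d, a receptor of migrating cortical neurons, was at 32.1 (WT 1), 41.3 (WT 2), 44.0 (cKO 1) and 25.1 CPM (cKO 2). The netrin receptor Dcc split both labels, with 33.7 CPM in WT 1 and 38.0 in cKO 2 against 66.1 in WT 2 and 71.4 in cKO 1. It was also the only member at least 1.5-fold lower in WT 1 than in WT 2, a share of 2.38% against 4.11% of all genes. In the opposite direction, Epha8 alone was at least 1.5-fold higher in cKO 2 than in cKO 1 (2.38% of members against 7.27% of all genes), and Robo3, Epha10 and Epha1 were at least 1.5-fold higher in WT 1 than in WT 2 (7.14% against 10.4%). Slit2, at 1.49 of WT 2, was just outside. Each share was near or below that of all genes.

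**Figure D3:**
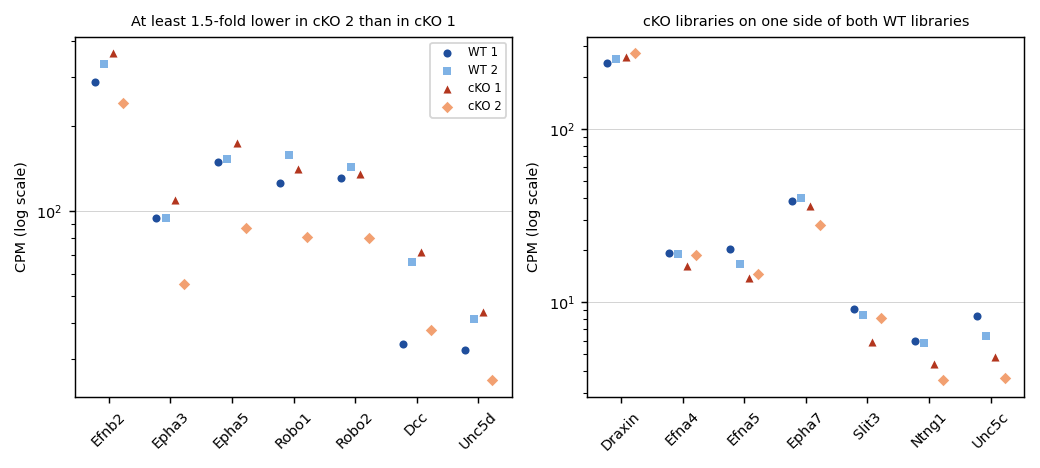
CPM (log axis) of guidance genes in WT 1, WT 2, cKO 1 and cKO 2, with 1 point per library. Left, the 7 genes at least 1.5-fold lower in cKO 2 than in cKO 1, in which cKO 1 lies near the WT libraries or above them. Right, the 7 genes whose cKO libraries lie on one side of both WT libraries, below in 6 and above in Draxin.

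The number of members past a threshold moved with the library left out. Each such fit takes the lone library of a label to vary like the other pair. Its p-values therefore do not take in the spread within the label that lost a library, and its counts are not read as a trait of the members. Without cKO 1, which leaves cKO 2 to stand for its label, 8 of 42 members (19.0%) had an unadjusted p under 0.05 in edgeR, against 15% of all genes in the same fit. In that fit 2 members (4.76%) had an adjusted p under 0.05, against 0.621% of all genes: Epha3 with a log2 fold change of -0.76 (adjusted p of 0.0469 from edgeR) and Epha5 with -0.77 (adjusted p of 0.0474 from edgeR). Robo2 at -0.74 and Robo1 at -0.78 missed it, with adjusted p-values of 0.055 and 0.0739 from edgeR. Without cKO 2, leaving cKO 1, the 2 members with an unadjusted p under 0.05 (4.76%, against 2.67% of all genes) were other genes, Ntn1 at -0.45 and Efnb3 at -0.41. Both were low in cKO 1, the library in which ventral telencephalon markers (13 of 13, none at 0) summed to 828 CPM against 1189 to 1280 CPM in the other 3, with Nkx2-1 at 14.4 CPM against 55.8 to 81.8 CPM. These markers did not all go this way. Ebf1 (35.0 CPM), Gad1 (54.2 CPM) and Isl1 (30.4 CPM) were lowest in cKO 2, and Gad2 was at 97.9 CPM in cKO 1 and 98.0 CPM in cKO 2. The rest were lowest in cKO 1. Epha8 too was lowest in cKO 1, at 7.02 CPM against 9.50 to 13.3 CPM, and the part of ventral tissue in these values was not tested. Without WT 2 the 2 members (4.76%, against 3.83% of all genes) were Unc5c at -0.94 and Dcc at 0.73, and without WT 1 there were 0, against 0.752% of all genes. In these last 3 fits no member had an adjusted p under 0.05, against 0% of all genes without cKO 2, 0.685% without WT 2 and 0.0418% without WT 1.

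Gene size moved with the difference between the cKO libraries. Members were longer genes, with a median span of 63.7 kb against 20.4 kb over all genes tested. Of the 13 members spanning over 200 kb, 10 were lower in cKO 2 than in cKO 1 (76.9%), with a median log2 ratio (CPM + 1) of -0.33, while 71.1% of all 912 such genes were lower, with a median of -0.21. Of the 15 members under 30 kb, 2 were lower (13.3%), with a median of 0.24, against 40.2% of 9827 genes and a median of 0.09. From 30 to 100 kb the members went the other way from all genes. There 1 of 7 was lower (14.3%), with a median of 0.19, against 63.4% of 4104 genes and a median of -0.13. From 100 to 200 kb, 4 of 7 were lower (57.1%), with a median of -0.04, against 68.4% of 1302 genes and a median of -0.17. Across the 42 members, the log2 ratio of cKO 2 to cKO 1 had a Spearman rho of -0.53 with span and of -0.56 with exon length, and across 16120 genes -0.29 and -0.33. These points are genes of the same 2 libraries and not replicates. The corresponding rho of WT 1 over WT 2 with span was -0.28 over the members and -0.08 over all genes. Cortical neuron markers (11 of 11, none at 0) summed to 6136 CPM in cKO 1 and 5180 in cKO 2, against 5434 and 6341 in WT. All of them but Tubb3 were lower in cKO 2 than in cKO 1, by a narrow margin in Fezf2 and Neurod2. Dcx was at 1084 CPM in cKO 1 and 517 in cKO 2, and Map2 at 756 and 395 CPM. Tubb3, the most abundant of them, was at 1698 in cKO 1 and 2246 in cKO 2. The part of gene size or of neuronal content in the values of Epha3, Epha5, Robo1, Robo2, Unc5d and Dcc was not tested.

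**Figure D4:**
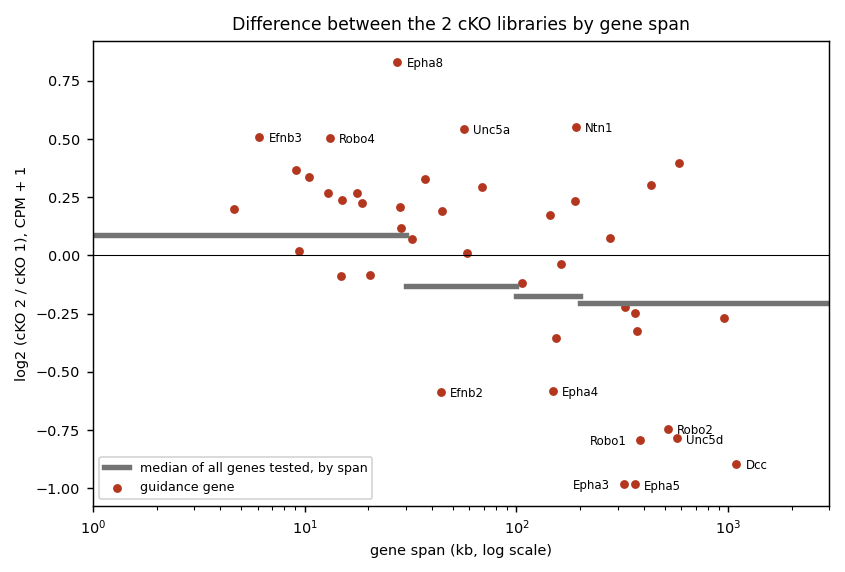
The log2 ratio of cKO 2 to cKO 1 (CPM + 1) of each of the 42 tested guidance genes (points) against the span of the gene in kb (log axis), with grey bars for the median of all genes tested in spans under 30, 30 to 100, 100 to 200 and over 200 kb. The points fall with span, as the bars do from 0.09 to -0.21, but from 30 to 100 kb most points lie above the bar. The 6 lowest points are genes over 200 kb.

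The wider guidance pathway was also without calls. Of a list of 46 co-factors and effectors, among them kinases and adaptors that act downstream of Eph, Robo and DCC receptors, all 46 were tested. None met the fold and p thresholds in edgeR, against 0.811% of all genes tested, or had an unadjusted p under 0.05, against 1.23%. DESeq2 called 0 at the fold and p thresholds, again without a share of all genes beside it. Their log2 fold changes were above 0 in 16 and below in 30, with a median of -0.04 against -0.01 over all genes, and 45 of the 46 intervals (97.8%) lay within a 2-fold change, against 70.2% of all genes. In 10 of them (21.7%) the cKO libraries were both under the WT libraries, against 11.2% of all genes, and in 2 (4.35%) both over them, against 10.4%. The co-factor with the largest difference, named after its value was seen, was Pak3, a protein kinase, at 91.9 (WT 1), 87.6 (WT 2), 85.1 (cKO 1) and 48.6 CPM (cKO 2). It had a log2 fold change of -0.42 (SE 0.24), and as with Robo1 and Robo2 it was cKO 2 that stood low.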

How the data were processed

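RNA-seq was analysed from a table of raw read counts per gene in 4 libraries, which the authors deposited without normalization; 11 blank rows were left out. The submitters' processing notes name TopHat2 2.0.12, Bowtie2 2.2.3, HTSeq 0.6.0 and mm9, but 97.3% of the 27232 genes found in GENCODE M21 had a start or end within 1 base of it, so positions were read as GRCm38. The authors' fold changes and p-values, and a second table of WT 1 and cKO 1 with their comparison, were not used. Whether strand was used in counting is not given, and 12 members share exon bases with another gene, 11 of them on the opposite strand.

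Counts were tested with edgeR 4.0.16 in R 4.3.3 (filterByExpr, TMM, quasi-likelihood test, no covariate), with Benjamini-Hochberg adjustment over all 16145 genes. CPM used library totals, and RPKM the exon union of GENCODE M21. Library ratios used a pseudocount of 1. The procedure was tested on simulated counts. Other normalizations and filters, a replicate block, leaving out each library, and DESeq2 1.42.0 were alternatives. Values in every library are given for members past a threshold, the 10 largest log2 fold changes, the 12 highest levels, the highest of each family and members at 3 counts or fewer in a group. The members and lists were chosen with earlier results of these data known.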

Additional observations from a re-analysis of the deposited data

How the results depend on the processing

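The count of members at the fold and p thresholds was 0 under every alternative run, and that of co-factors likewise. With DESeq2 the count of members with an unadjusted p under 0.05 went from 1 to 0, Unc5c being at -0.77, and 2 of 42 members, Efna3 and Ephb1, changed sign. RLE normalization, no filter beyond 1 count and a minimum of 10 counts in every library changed no call among the members, and 1 sign, that of Efna3 with no filter, while Epha1 was left out by the last. With library totals alone Slit1 turned from 0.01 to -0.00258. With the replicate block, whose numbers are only shared by label (correlation of same-numbered deviations 0.107 over 16145 genes), Epha4 turned from 0.01 to -0.0164, the median log2 fold change was -0.05, and 1 member had an unadjusted p under 0.05, so that no call changed. Leaving out each library in turn left 1 in its group and moved more: the count with an unadjusted p under 0.05 ran from 0 (without WT 1) to 8 (without cKO 1), that with an adjusted p under 0.05 from 0 to 2 (without cKO 1), the count with groups apart from 21 to 27, and the median log2 fold change from -0.12 to -0.00399. Over the same fits the log2 fold change ran from -0.98 to -0.59 in Unc5c, from -0.0441 to 1.12 in Epha1, from -0.78 to 0.00582 in Robo1, from -0.74 to -0.01 in Robo2, from -0.46 to -0.11 in Epha7, from -0.57 to 0.0287 in Robo4, from 0.03 to 0.31 in Efnb1, from -0.41 to 0.11 in Efnb3, from -0.33 to 0.24 in Efnb2, from -0.13 to 0.22 in Efna2, from -0.19 to 0.19 in Neo1, from -0.23 to 0.15 in Ntng2, from -0.30 to 0.27 in Epha4, from -0.063 to 0.18 in Ephb2, from -0.12 to 0.16 in Slit1, from -0.24 to 0.32 in Unc5a and from -0.45 to 0.13 in Ntn1. The count with groups apart was 7 with all 4 libraries, or 6 with CPM by TMM-scaled totals, without a share of all genes beside the 6. It can only rise when 1 library is left out, since groups already apart stay apart. The same counts over all genes are not given for these fits, so the rise is not read as a trait of the members. Between 10 and 14 of the 42 members changed sign in each of these fits. Members that kept their sign in all 4 also moved, from -0.56 to -0.09 in Slit3, from -0.39 to -0.11 in Ephb3, from -0.49 to -0.24 in Efna5, from -0.72 to -0.42 in Ntng1, from 0.02 to 0.22 in Rgma, from 0.03 to 0.29 in Ephb6 and from 0.07 to 0.18 in Draxin. Precision is limited by 2 libraries per label and, for Epha1, Epha6, Epha10 and Ntn5, by counts of 41 or fewer in every library. The cause of these moves was not tested.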
